A study of Mus musculus with 48 samples.

Results

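Neurotrophins are secreted growth factors of the nervous system, and the transcripts of 6 genes for neurotrophins and their receptors (Bdnf, Ntf3, Ntrk2, Ntrk3, Ngfr and Sort1) were followed in the brains of sleep-deprived mice. All probes whose RefSeq accession belongs to 1 of these genes were taken, which gave 13 probes for 7 accessions, from 6 of the 18883 genes named on the array. All 13 passed the filter on dim probes in both tissues. The frontal cortex and the hypothalamus of 24 adult mice were each hybridised to an array of their own, 48 in all. The groups were 8 Per3 5/5 mice, 8 Per3 4/4 mice and 8 wild-type (WT) mice of a C57BL/6 background. In the knock-in lines, an exon of the mouse clock gene Per3 was replaced by its human counterpart. The human exon holds a primate-specific repeat, here in 5 or 4 copies. The exchange used Cre-lox and the Cre transgene was bred out, so that every cell carries the human exon. The WT line came from the same conditional stock, and all mice were bred from homozygous pairs, so that line and genotype cannot be told apart. All mice had been kept awake for 12 h, and the series holds no undisturbed mice.

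Brain-derived neurotrophic factor (BDNF, from Bdnf) and neurotrophin-3 (from Ntf3) are made as proneurotrophins and cut to their mature forms. Mature BDNF acts mainly through the receptor tyrosine kinase TrkB (from Ntrk2) and neurotrophin-3 through TrkC (from Ntrk3), whereas proneurotrophins bind p75NTR (from Ngfr) together with sortilin (from Sort1). In cortex and hypothalamus this system is known for its part in synaptic plasticity, and cortical Bdnf is a classical activity-dependent transcript that rises with waking.

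Levels are given as log2 of the processed signal of a probe minus log2 of the 75th percentile of its array, so that 0 is the level of the 75th percentile spot. A probe brightness depends on its sequence, so levels were compared between groups and not between probes. Genotype differences were tested with limma over all probes of a tissue, and a probe was called at a Benjamini-Hochberg adjusted p under 0.05.

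The arrays of WT mice were the brightest. Their median 75th percentile was 1300 intensity units in cortex, against 752.7 in Per3 4/4 and 893.6 in Per3 5/5. In hypothalamus these medians were 1522, 924.3 and 1045. Arrays of a group correlated with r from 0.968 to 0.989 over probes, and no spot was saturated. Per the file headers, the arrays were scanned on 3 days, and WT mice were missing from day 1 (4 Per3 5/5 and 4 Per3 4/4 mice). The remaining mice were split into 5 WT with 3 Per3 4/4 on day 2 and 3 WT with 4 Per3 5/5 and 1 Per3 4/4 on day 3. Genotype differences are therefore also given with scan day as a block. The labelled tissues matched their markers, since 12 of 12 cortex markers were higher in cortex and 14 of 15 tested hypothalamus markers higher in hypothalamus in each genotype. Per3 itself was measured by 1 probe whose position relative to the exchanged exon is not given. Its log2 level was higher than WT by 0.69 in Per3 5/5 cortex (adjusted p = 0.00546), by 0.41 in Per3 4/4 cortex (0.0382) and by 0.47 in Per3 5/5 hypothalamus (0.0147), and by 0.17 in Per3 4/4 hypothalamus, which did not pass (0.349). None of these was called in the fit blocked on scan day (0.54, 0.34, 0.32 and 0.17, adjusted p = 0.0839, 0.175, 0.156 and 0.445).

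**Figure D1:**
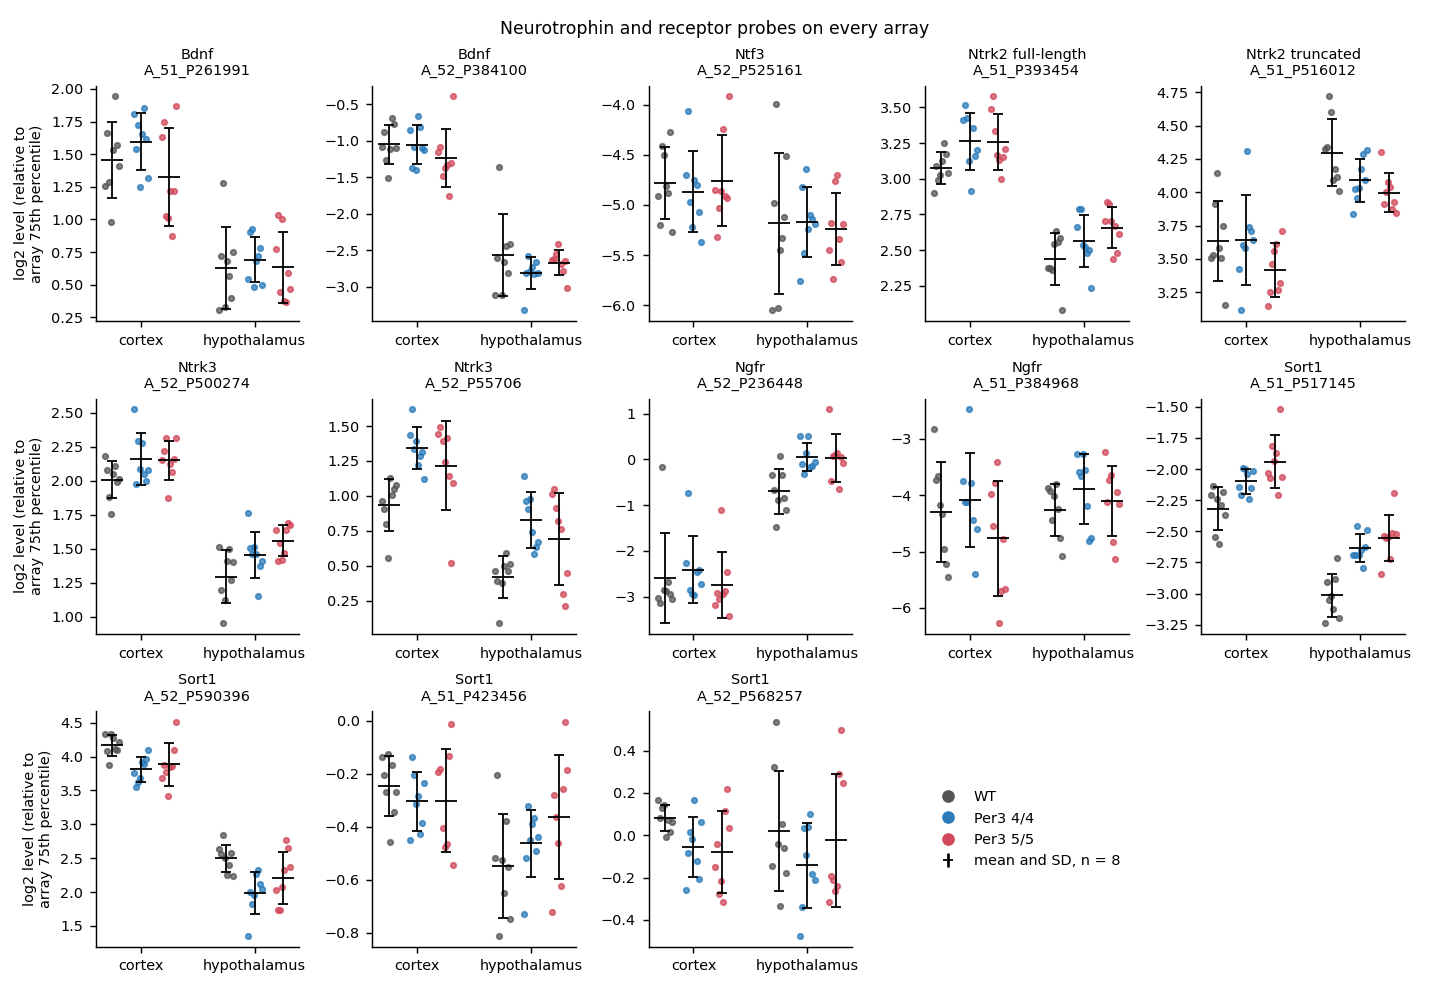
Log2 level relative to the array 75th percentile (vertical axis) of the 13 probes in each mouse, by tissue and genotype. Each point is 1 mouse, and each bar gives the mean and SD of 8 mice. The tissues lie further apart than the genotypes for most probes, and 3 cortex arrays, 1 of each genotype, lie far above the rest for the Ngfr probe A_52_P236448.

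In every genotype, most members differed between the tissues. Bdnf, full-length Ntrk2, both Ntrk3 probes and 2 of 4 Sort1 probes were lower in hypothalamus than in cortex of the same mouse. Truncated Ntrk2 and the brighter Ngfr probe were higher, whereas the dim Ngfr probe was called in Per3 5/5 alone. In all, 10 of 13 member probes were called between the tissues in WT, 9 in Per3 4/4 and 11 in Per3 5/5. Over all 31228 probes tested, 59.5%, 59.0% and 58.6% were called. In these bulk samples, fewer cells of a type and less RNA per cell cannot be told apart. Beside these tissue differences, oligodendrocyte markers were higher in hypothalamus (7 of 8 called in WT and 8 of 8 in each knock-in, median log2 difference 0.59 to 1.07) and 3 of 5 neuron markers were called higher in cortex in each genotype, with 1 called higher in hypothalamus in each knock-in. Astrocyte markers hardly differed in their median (0.06 to 0.17). The part of cell composition in the members' differences was not tested.

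**Figure D2:**
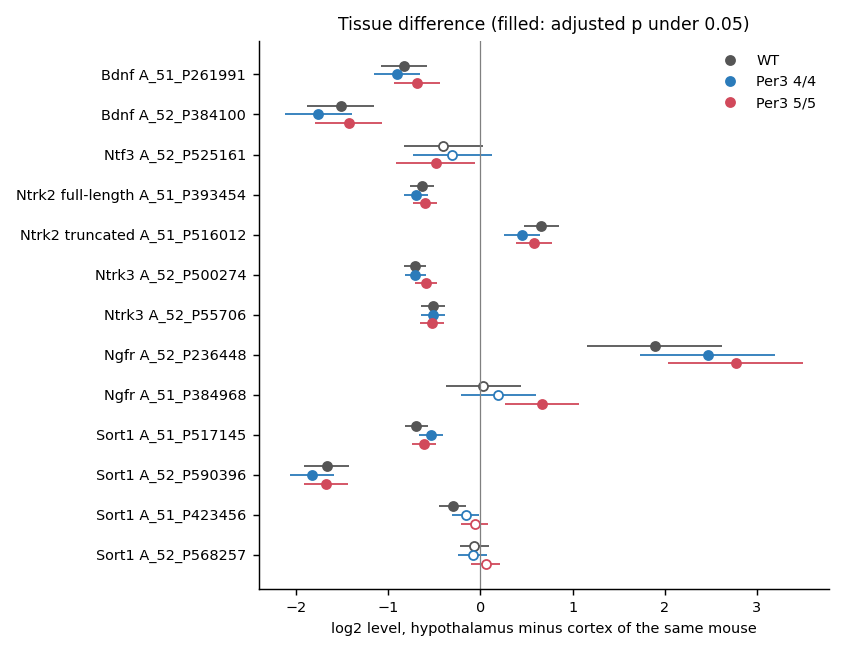
Log2 level in hypothalamus minus cortex of the same mouse (horizontal axis) for each of the 13 probes and each genotype. Points are limma estimates over 8 mice, lines are 95% confidence intervals, and filled points have an adjusted p under 0.05; Ngfr A_52_P236448 and truncated Ntrk2 lie to the right of 0, whereas Bdnf, full-length Ntrk2 and Ntrk3 lie to the left.

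Bdnf, the main ligand of TrkB, was measured by 2 probes of the accession NM_007540. The gene has several first exons, each with a promoter of its own, and the RefSeq promoter table (GRCm38.p6) holds 7 windows for it. Calcium- and cAMP-responsive elements drive its activity-dependent promoters. Of the motifs searched on both strands of the 250 bases before each start (TGACGTCA, TCACGTCA, CACGTG and GGGCGG, of which no matches overlapped in the windows shown), TCACGTCA occurred in 0.35% of all 32851 windows and TGACGTCA in 1.55%. One Bdnf window, chr2:109692186-109692435 on the plus strand, holds TCACGTCA, and is shown because Bdnf levels and those of its regulators are compared here, with the match in capitals.
Bdnf: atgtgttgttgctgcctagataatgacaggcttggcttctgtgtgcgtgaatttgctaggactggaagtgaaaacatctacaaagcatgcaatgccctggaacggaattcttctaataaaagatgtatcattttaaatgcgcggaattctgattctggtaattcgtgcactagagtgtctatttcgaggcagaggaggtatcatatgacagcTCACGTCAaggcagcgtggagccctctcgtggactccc

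The brighter Bdnf probe (A_51_P261991, 10 spots on each array) lay in cortex between 0.98 and 1.94 in WT (median 1.47), between 1.25 and 1.86 in Per3 4/4 (1.63) and between 0.87 and 1.87 in Per3 5/5 (1.22). In hypothalamus the lowest, median and highest levels were 0.30, 0.62 and 1.28 in WT, 0.48, 0.70 and 0.92 in Per3 4/4, and 0.37, 0.53 and 1.04 in Per3 5/5. The 3 genotypes overlapped over most of their range in both tissues. The spots of this probe on 1 array had an SD of about 0.05, well under the spread between mice. Hypothalamus minus cortex, its log2 difference was -0.83 in WT, -0.90 in Per3 4/4 and -0.69 in Per3 5/5 (limma, adjusted p = 2.27e-06, 6.47e-07 and 2.82e-05), with the lower level in hypothalamus in 8 of 8 mice of each genotype. No genotype difference in Bdnf passed the test. Per3 5/5 minus Per3 4/4 in cortex was -0.27 (95% CI -0.58 to 0.03, adjusted p = 0.356). Against WT, the cortex difference of this probe was -0.13 in Per3 5/5 (-0.44 to 0.17) and 0.14 in Per3 4/4 (-0.16 to 0.44). In hypothalamus these intervals ran from -0.26 to 0.27 and from -0.20 to 0.33. Intervals of this width do not show the genotypes to be alike.

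The other Bdnf probe (A_52_P384100) showed the wider gap between tissues. Its cortex medians were -1.10 in WT, -1.09 in Per3 4/4 and -1.32 in Per3 5/5, and its hypothalamus medians -2.63, -2.80 and -2.64. The log2 difference of hypothalamus from cortex was -1.51, -1.76 and -1.43 in the same order (2.85-, 3.39- and 2.69-fold lower), again in 8 of 8 mice of each genotype. One WT hypothalamus, that of replicate 3, held the highest level of both Bdnf probes, -1.36 on this probe against -2.41 in the next WT mouse.

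Ntf3, the ligand of TrkC, was dim in adult brain. Its single probe (A_52_P525161, NM_008742) lay between -5.27 and -4.27 in WT cortex (median -4.84), between -5.37 and -4.06 in Per3 4/4 cortex (-4.89) and between -5.32 and -3.92 in Per3 5/5 cortex (-4.89). In hypothalamus the medians were -5.22, -5.17 and -5.26. All groups overlapped. Genotype differences against WT lay between -0.09 and 0.03 with 95% intervals within -0.55 and 0.50, and none was called. Hypothalamus was lower than cortex in Per3 5/5, by a log2 difference of -0.48 (6 of 8 mice, limma adjusted p = 0.0483), whereas the difference in WT (-0.40) and in Per3 4/4 (-0.30) did not pass. The call in Per3 5/5 was lost in 6 fits that each left out 1 mouse.

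Ntrk2 encodes TrkB in a full-length form with the kinase domain and in a truncated form without it, which in adult brain is abundant in astrocytes and binds BDNF without kinase signalling. The array measures both, with 10 spots each, by probes assigned to NM_001025074 (full-length, A_51_P393454) and NM_008745 (truncated, A_51_P516012). The files give no probe positions, so which forms each probe can hybridise with rests on this assignment. The promoter table held 1 Ntrk2 window.

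Full-length Ntrk2 lay in cortex between 2.90 and 3.25 in WT (median 3.06), between 2.91 and 3.52 in Per3 4/4 (3.28) and between 3.0 and 3.58 in Per3 5/5 (3.19). In hypothalamus it lay between 2.08 and 2.64 in WT (2.46), between 2.23 and 2.79 in Per3 4/4 (2.53) and between 2.44 and 2.83 in Per3 5/5 (2.68). Cortex and hypothalamus did not overlap in any genotype, whereas the genotypes overlapped within each tissue. The log2 difference of hypothalamus from cortex was -0.64 in WT, -0.70 in Per3 4/4 and -0.60 in Per3 5/5 (limma, adjusted p = 3.95e-09, 7.18e-10 and 1.1e-08). Against WT, the differences were 0.18 and 0.19 in cortex (Per3 5/5 and Per3 4/4, limma adjusted p = 0.164 and 0.127) and 0.22 and 0.12 in hypothalamus (0.0881 and 0.342). None passed.

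Truncated Ntrk2 ran the other way between the tissues. It lay in cortex between 3.15 and 4.14 in WT (median 3.55), between 3.11 and 4.31 in Per3 4/4 (3.62) and between 3.14 and 3.71 in Per3 5/5 (3.39). In hypothalamus it lay between 4.01 and 4.72 in WT (4.25), between 3.84 and 4.32 in Per3 4/4 (4.06) and between 3.84 and 4.30 in Per3 5/5 (3.96). Hypothalamus was higher in 8 of 8 WT, 7 of 8 Per3 4/4 and 8 of 8 Per3 5/5 mice, by 0.66, 0.45 and 0.58 on the log2 scale (limma, adjusted p = 1.38e-06, 0.000208 and 9.12e-06). In hypothalamus, truncated Ntrk2 was lower in Per3 5/5 than in WT, by a log2 difference of -0.30 (SE 0.0996, 95% CI -0.51 to -0.09, adjusted p = 0.0388), with 5 of 8 Per3 5/5 mice below the lowest WT mouse. The same difference was -0.21 in Per3 4/4 (adjusted p = 0.150) and did not pass. Blocked on scan day, the Per3 5/5 difference was -0.17 (adjusted p = 0.374), on day 3 alone it was -0.18, and the call was lost in 9 fits that each left out 1 mouse. Among the astrocyte markers of hypothalamus, 3 of 9 were called higher and 1 lower in Per3 5/5 than in WT. The median log2 difference of the list was 0.27, against the direction of truncated Ntrk2. The lower one was Gja1, a gap junction gene, at -0.35, a call that was lost when scan day was blocked (-0.31, adjusted p = 0.150), and it was chosen after its values were seen. Under that block, 2 of the 9 were called higher and 0 lower. The summed linear level of the 9 markers was 237 to 304 in WT, 269 to 368 in Per3 4/4 and 297 to 387 in Per3 5/5. Their part in the Ntrk2 difference was not tested.

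The log2 difference between the full-length and the truncated probe on the same array does not depend on the scaling of the array. It was examined after the values of both forms were seen, so it is a description without a test. In cortex its median was -0.52 in WT (range -1.12 to -0.11), -0.41 in Per3 4/4 (-1.40 to 0.40) and -0.22 in Per3 5/5 (-0.50 to 0.35). In hypothalamus it was -1.94 in WT (-2.36 to -1.46), -1.54 in Per3 4/4 (-2.09 to -1.17) and -1.31 in Per3 5/5 (-1.60 to -1.08). Between the tissues it was lower in hypothalamus in 8 of 8 mice of each genotype, with a mean log2 difference of -1.30 in WT, -1.15 in Per3 4/4 and -1.18 in Per3 5/5, which is 2.46-, 2.22- and 2.27-fold. In hypothalamus, 6 of 8 Per3 5/5 mice lay above the highest WT mouse, and the means differed by 0.52. Within scan days this difference was 0.32 in hypothalamus, and in cortex it went from 0.40 to -0.04.

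**Figure D3:**
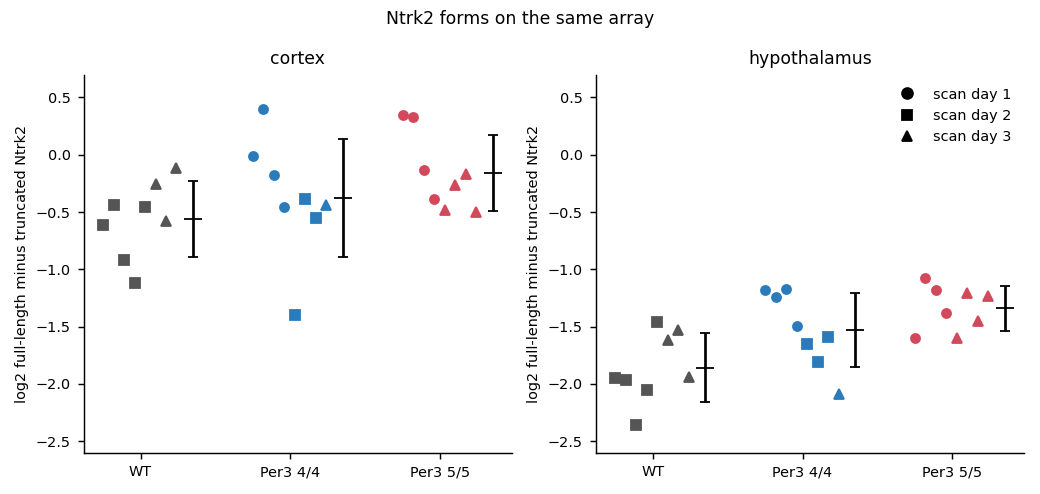
Log2 level of full-length minus truncated Ntrk2 on the same array (vertical axis), by tissue and genotype. Each point is 1 mouse, and each bar gives the mean and SD of 8 mice. The hypothalamus means of -1.86 to -1.34 lie below the cortex means of -0.56 to -0.16.

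Ntrk3 encodes TrkC, the receptor of neurotrophin-3, and both its probes carry the accession NM_182809. On A_52_P500274 the cortex levels ran from 1.75 to 2.18 in WT (median 2.03). In Per3 4/4 they ran from 1.97 to 2.52 (2.08), and in Per3 5/5 from 1.87 to 2.31 (2.15). The hypothalamus levels ran from 0.95 to 1.51 in WT (1.33). Levels of Per3 4/4 mice ran from 1.15 to 1.76 (1.46) there, and those of Per3 5/5 mice from 1.41 to 1.69 (1.59). No mouse of any genotype had a hypothalamus level as high as the lowest cortex level of its genotype. The log2 difference of hypothalamus from cortex was -0.71 in WT, -0.71 in Per3 4/4 and -0.59 in Per3 5/5 on this probe, and -0.51, -0.51 and -0.53 on the other. Against WT, A_52_P500274 was higher in Per3 5/5 hypothalamus by 0.26 (SE 0.0877, 95% CI 0.08 to 0.44, limma adjusted p = 0.0387). When scan day was blocked this was 0.16 (adjusted p = 0.350), on day 3 alone 0.23, and it was lost in 8 fits that each left out 1 mouse.

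On the other Ntrk3 probe (A_52_P55706) the cortex levels ran from 0.55 to 1.13 in WT (median 0.99). In Per3 4/4 they ran from 1.12 to 1.62 (1.33), and in Per3 5/5 from 0.52 to 1.49 (1.32). The hypothalamus levels ran from 0.09 to 0.59 in WT (0.46). The range was 0.58 to 1.14 (0.82) in Per3 4/4 and 0.21 to 1.05 (0.79) in Per3 5/5. In both tissues, 7 of 8 Per3 4/4 mice lay above the highest WT mouse. Per3 4/4 was higher than WT by 0.41 in cortex (SE 0.114, 95% CI 0.17 to 0.64, limma adjusted p = 0.0149) and by 0.41 in hypothalamus (0.16 to 0.65, adjusted p = 0.0280). The Per3 5/5 differences of 0.28 and 0.27 did not pass (adjusted p = 0.10 and 0.111), and on day 3 alone they were -0.002 and -0.09. Scan-day blocking gave Per3 4/4 differences of 0.26 and 0.19 (adjusted p = 0.147 and 0.260), and day 2 alone gave 0.41 and 0.29. The hypothalamus call was lost in 5 fits that each left out 1 mouse. Each probe was thus called in comparisons where the other was not. In Per3 5/5 hypothalamus their estimates were alike (0.26 on A_52_P500274 and 0.27 on A_52_P55706), so the calls there do not set the probes apart. How their targets differ is not given.

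Ngfr encodes p75NTR, which in adult brain is strong in basal forebrain cholinergic neurons and otherwise low. The promoter table holds 1 window for it, chr11:95587699-95587948 on the minus strand, shown because Ngfr had the widest tissue gap of the members. GGGCGG, the core of the GC box, was found in 32.7% of all windows. In capitals are its 3 matches and 1 match of its reverse complement CCGCCC.
Ngfr: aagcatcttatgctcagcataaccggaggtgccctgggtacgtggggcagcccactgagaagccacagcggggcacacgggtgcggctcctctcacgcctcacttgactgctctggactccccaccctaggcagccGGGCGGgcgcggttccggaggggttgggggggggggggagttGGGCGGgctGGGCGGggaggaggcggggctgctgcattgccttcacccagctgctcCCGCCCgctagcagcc

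The brighter Ngfr probe (A_52_P236448, NM_033217, 10 spots) lay in cortex between -3.13 and -0.17 in WT (median -2.91), between -2.96 and -0.72 in Per3 4/4 (-2.58) and between -3.41 and -1.10 in Per3 5/5 (-2.93). In each of these groups a single array stood far above the others. WT replicate 3 was at -0.17 with the next mouse at -2.68, Per3 4/4 replicate 2 at -0.72 with the next at -2.27, and Per3 5/5 replicate 4 at -1.10 with the next at -2.45. In the same 3 cortex arrays the summed linear level of the basal forebrain cholinergic markers was the highest of its genotype, at 2.08, 0.712 and 0.834, against 0.175 to 0.52 in the other 21 cortex arrays. The summed striatum markers were 156, 67.2 and 62.7 in the 3 arrays and 17.5 to 76.4 in the others. Whether neighbouring tissue in these blocks set their Ngfr level was not tested.

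In hypothalamus this Ngfr probe lay between -1.48 and 0.08 in WT (median -0.76), between -0.32 and 0.52 in Per3 4/4 (-0.07) and between -0.65 and 1.09 in Per3 5/5 (0.06). It was higher than in cortex by 1.89 in WT (7 of 8 mice), 2.46 in Per3 4/4 and 2.77 in Per3 5/5 (8 of 8 each) on the log2 scale, or 3.71-, 5.52- and 6.84-fold (limma, adjusted p = 6.14e-05, 1.79e-06 and 3.08e-07). Without the mouse of each genotype highest in cholinergic markers in cortex, these differences were 2.35, 2.73 and 3.0.

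Both knock-ins had more Ngfr signal than WT in hypothalamus. The difference was 0.73 in Per3 5/5 (SE 0.215, 95% CI 0.29 to 1.18, limma adjusted p = 0.0220) and 0.75 in Per3 4/4 (0.30 to 1.19, adjusted p = 0.0254), or 1.66- and 1.68-fold. The groups overlapped, with 3 of 8 mice of each knock-in above the highest WT mouse. In cortex the differences were -0.15 (-0.95 to 0.66) and 0.18 (-0.63 to 0.98). The wide Per3 4/4 interval holds its hypothalamus difference, and that of Per3 5/5 ends just below its own. Neither knock-in was called for a tissue gap unlike that of WT (limma, adjusted p = 0.791 in Per3 5/5 and 0.930 in Per3 4/4). The hypothalamus differences blocked on scan day were 0.72 and 0.67 (adjusted p = 0.124 and 0.146), and within a single day they were 0.63 (day 3) and 0.73 (day 2), so their size held while the calls were lost. Without the mice highest in cortical cholinergic markers they were 0.61 and 0.66 (adjusted p = 0.0705 and 0.0738). Leaving out 2 mice whose hypothalamus arrays held pituitary markers (a summed level of 753 and 44.3, against 0.92 to 6.20 in the others) gave 0.69 in both knock-ins (adjusted p = 0.0530 and 0.0505). The Per3 4/4 call was also lost without Per3 4/4 replicate 1 (0.68, adjusted p = 0.059).

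Cholinergic markers were compared in the same hypothalamus arrays. Of the 7 tested, 2 were called higher and 1 lower in Per3 5/5 than in WT (median log2 difference of the list 0.40), and 0 higher and 1 lower in Per3 4/4 (0.38). Lhx8, a transcription factor of cholinergic neurons, was higher in Per3 5/5 by 1.64, and stayed called when scan day was blocked (2.26, adjusted p = 0.0420). Isl1, another transcription factor of these neurons, was lower in both knock-ins (-0.54 and -0.52), and these calls were lost under the block (-0.29 and -0.34, adjusted p = 0.362 and 0.276). These genes are named because the Ngfr difference stands beside them, after their values were seen. The summed level of the 7 was 1.08 to 2.13 in WT, 0.877 to 2.39 in Per3 4/4 and 0.912 to 2.66 in Per3 5/5, and its part in the Ngfr difference was not tested. The second Ngfr probe (A_51_P384968) was dim, from -6.27 to -2.48, and was well above background on 7 of 8 arrays in Per3 5/5 cortex. It was called in no genotype comparison and between tissues in Per3 5/5 alone (0.67, adjusted p = 0.00515), a call that was lost after another background correction (0.11, adjusted p = 0.569).

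**Figure D4:**
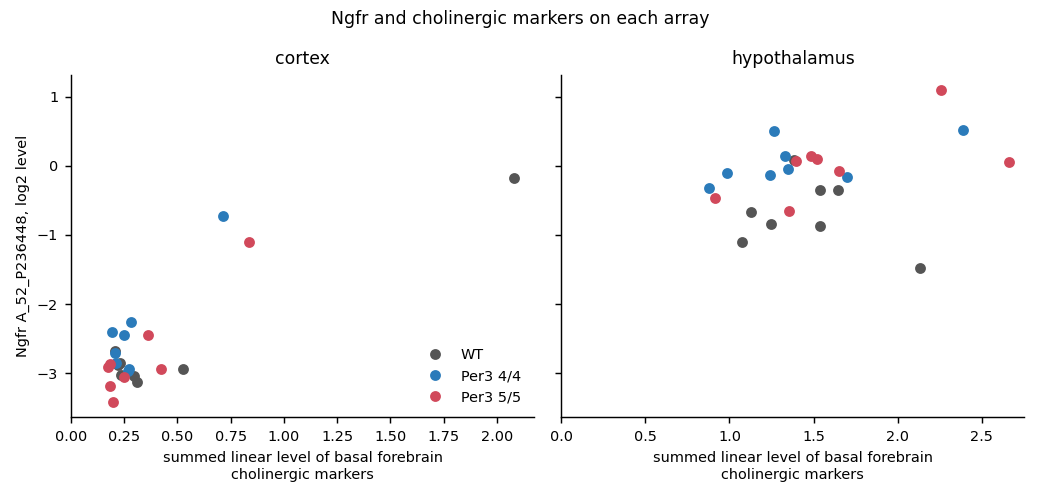
Log2 level of Ngfr (probe A_52_P236448, vertical axis) against the summed linear level of basal forebrain cholinergic markers (horizontal axis, linear scale), with 1 point per array. In cortex, WT replicate 3, Per3 4/4 replicate 2 and Per3 5/5 replicate 4 lie to the upper right of the other 21 arrays; in hypothalamus the genotypes overlap along the horizontal axis.

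Sort1 encodes sortilin, the sorting receptor that takes proneurotrophins up together with p75NTR and carries BDNF to the regulated secretory pathway. Its 4 probes all carry NM_019972, yet they did not give 1 pattern. On A_51_P517145 the cortex levels ran from -2.6 to -2.13 in WT (median -2.26). Levels of Per3 4/4 mice ran from -2.24 to -1.99 (-2.09) there, and those of Per3 5/5 mice from -2.21 to -1.52 (-1.98). In hypothalamus they ran from -3.24 to -2.71 in WT (-3.03). In Per3 4/4 they ran from -2.79 to -2.46 (-2.67), and in Per3 5/5 from -2.84 to -2.19 (-2.54). The knock-ins overlapped WT at its upper edge only, since 6 of 8 Per3 5/5 and 7 of 8 Per3 4/4 mice lay above the highest WT mouse in hypothalamus. This probe was higher than WT in Per3 5/5 cortex by 0.38 (SE 0.0869, 95% CI 0.20 to 0.56, limma adjusted p = 0.00997) and in hypothalamus by 0.46 in Per3 5/5 (0.28 to 0.64, adjusted p = 0.00244) and 0.38 in Per3 4/4 (0.20 to 0.56, adjusted p = 0.0106). The Per3 4/4 difference in cortex, 0.22, did not pass (adjusted p = 0.0681). In the fit with scan day as a block, the hypothalamus differences stayed called, at 0.42 and 0.40 (adjusted p = 0.0368 and 0.0446), and the Per3 5/5 cortex difference was 0.35 (adjusted p = 0.0830). Within a single scan day the 3 differences were 0.36 in cortex (day 3) and 0.44 (day 3) and 0.38 (day 2) in hypothalamus. No fit that left out 1 mouse lost any of the 3 calls.

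The brightest Sort1 probe (A_52_P590396) moved the opposite way in Per3 4/4. In cortex it ran from 3.88 to 4.34 in WT (median 4.17). The range was 3.55 to 4.09 (3.83) in Per3 4/4 and 3.42 to 4.51 (3.86) in Per3 5/5. In hypothalamus it ran from 2.24 to 2.84 in WT (2.53). Levels of Per3 4/4 mice ran from 1.35 to 2.32 (2.03) there, and those of Per3 5/5 mice from 1.73 to 2.77 (2.20). Of the Per3 4/4 mice, 4 of 8 in cortex and 6 of 8 in hypothalamus lay below the lowest WT mouse. Per3 4/4 was lower than WT in cortex, by a log2 difference of -0.36 (SE 0.115, 95% CI -0.59 to -0.12, limma adjusted p = 0.0300), and in hypothalamus, by -0.51 (-0.82 to -0.20, adjusted p = 0.0273). The Per3 5/5 differences of -0.28 and -0.29 did not pass (adjusted p = 0.102 and 0.172). On day 3 alone the Per3 5/5 differences were -0.07 in cortex and 0.12 in hypothalamus, so a lower level in Per3 5/5 did not hold within that day. Blocking scan day left Per3 4/4 differences of -0.18 and -0.25 (adjusted p = 0.278 and 0.259), and day 2 alone left -0.25 and -0.32. The cortex call was lost in 6 and the hypothalamus call in 3 of the fits that left out 1 mouse.

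The gap between these Sort1 probes on the same array (A_51_P517145 minus A_52_P590396, a description chosen after both were seen) was narrower in the knock-ins. Its mean was -6.49 in WT, -5.91 in Per3 4/4 and -5.83 in Per3 5/5 in cortex, and -5.51, -4.62 and -4.76 in hypothalamus. The difference against WT was 0.58 in cortex and 0.89 in hypothalamus for Per3 4/4, with 8 of 8 mice above the highest WT mouse in both tissues. For Per3 5/5 it was 0.66 and 0.75, with 7 of 8 mice above. Within scan days these values were 0.41 and 0.73 for Per3 4/4 and 0.43 and 0.32 for Per3 5/5. The other Sort1 probes, A_51_P423456 and A_52_P568257, were called in no genotype comparison, with differences against WT from -0.06 to 0.19 and from -0.16 to -0.04. So neither a rise nor a fall of Sort1 as a whole can be read from these probes. Between the tissues, A_52_P590396 was lower in hypothalamus, with log2 differences of -1.67 in WT, -1.83 in Per3 4/4 and -1.68 in Per3 5/5 and no overlap of the tissues, and A_51_P517145 was lower at -0.69, -0.54 and -0.61.

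When the levels of both tissues of a mouse were averaged, the brightest probe of each of 7 transcript forms gave 21 genotype comparisons by exact two-sided permutation tests. Sort1 A_52_P590396 in Per3 4/4 against WT, at -0.43, had an exact p of 0.000155 (0.00326 with Benjamini-Hochberg adjustment over the 21 tests), and within scan days the difference was -0.26 with an exact p of 0.00446, the smallest that 12 mice on these days allow (adjusted 0.0938). The other 20 tests did not pass. Among them, in Per3 5/5 against WT, were truncated Ntrk2 at -0.26 (exact p = 0.0129), full-length Ntrk2 at 0.20 (exact p = 0.0137) and Ntrk3 at 0.20 (exact p = 0.00870), each with an adjusted p of 0.0718.

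The comparison of Per3 5/5 with Per3 4/4 asked whether the number of repeats changes these transcripts after sleep loss. By limma, 0 of 13 member probes were called in either tissue, against a background of 0.0% of probes in cortex and 0.0% in hypothalamus. No member had an unadjusted p under 0.05 in either tissue. Over all probes, 4656 (15.7%) had in cortex and 4983 (16.2%) in hypothalamus. With 13 probes, a count of 0 does not set the members apart from these shares. The t-test named in the methods of the study also called 0 members in each tissue. The study also used rank products, alone or beside its other tests, and reported transcripts that differed between the knock-ins in both tissues. Rank products were not run here. By limma, the smallest adjusted p of a member was 0.356 in cortex and 0.439 in hypothalamus. Intervals of single members still reach sizes that were called against WT, so these data do not show the 2 knock-ins to be alike.

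Against WT, 1 of 13 member probes was called in Per3 5/5 cortex, where 12.4% of all probes were, and 2 of 13 in Per3 4/4 cortex, where 22.5% were. In hypothalamus 4 of 13 were called in Per3 5/5, against 18.8% of all probes, and 4 of 13 in Per3 4/4, against 15.1%. The counts at an unadjusted p under 0.05 were 4, 4, 6 and 5 members in the same order, against 30.7%, 36.6%, 35% and 33.1% of all probes, so the members' shares lay near the background. Beside the hypothalamus differences, oligodendrocyte markers were called higher in 3 of 8 genes in Per3 5/5 (median log2 difference 0.31) and in 6 of 8 in Per3 4/4 (0.43), with summed levels of 187 to 275 in WT, 229 to 288 in Per3 5/5 and 244 to 342 in Per3 4/4. Their part in the members' differences was not tested. Both comparisons of a tissue use the same WT arrays, so calls in both knock-ins are not independent. The median log2 difference of the members was -0.13 and 0.14 in cortex (Per3 5/5 and Per3 4/4) and 0.16 and 0.09 in hypothalamus, and over all probes the medians lay between 0.02 and 0.06. Once scan day was blocked, 0 members were called in cortex in either knock-in, where 0.986% and 7.72% of all probes were, and 1 in each knock-in in hypothalamus (Sort1 A_51_P517145), where 2.1% and 0.745% were. For the difference of the tissue gap between genotypes, 0 members were called in any of the 3 comparisons, against 0.00961% of all probes for Per3 5/5 against WT, 0.0032% for Per3 4/4 against WT and 0.0% between the knock-ins. At an unadjusted p under 0.05 there were 2, 0 and 0 members, against 6.22%, 5.00% and 3.83% of all probes.

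**Figure D5:**
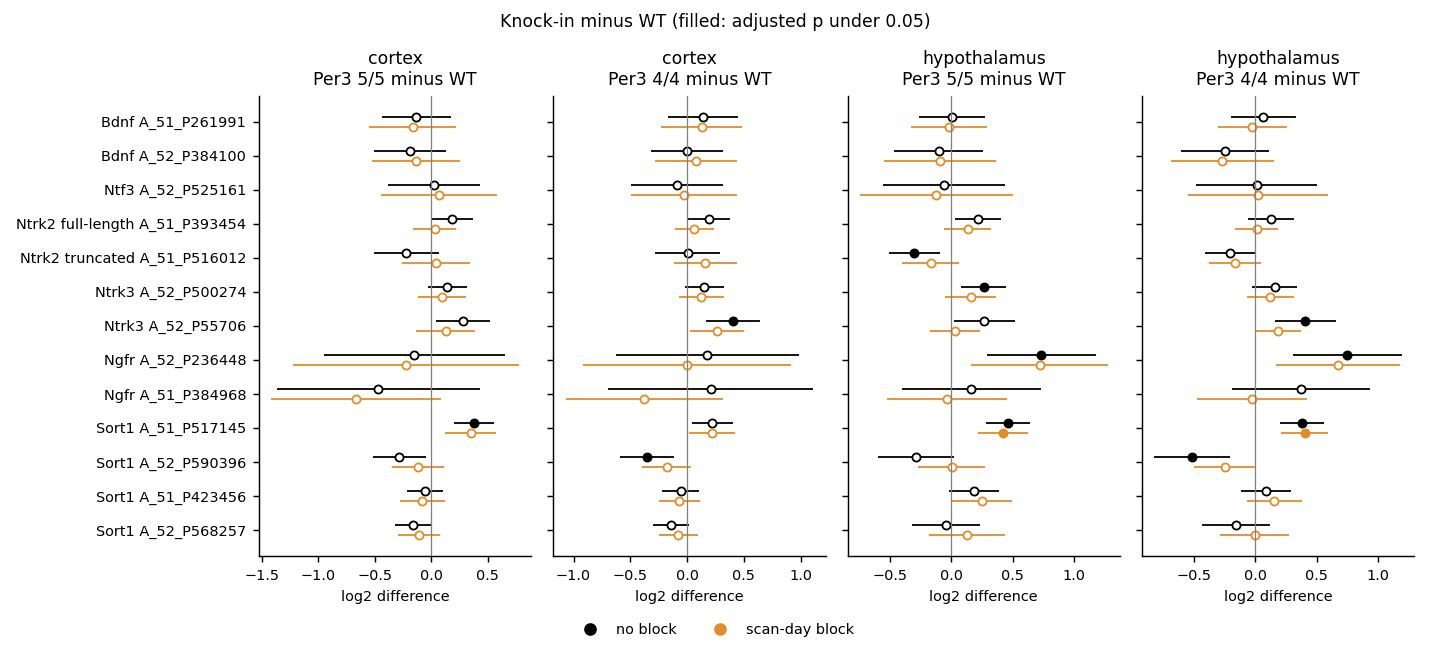
Log2 difference of each knock-in from WT (horizontal axis, scaled to each panel) for the 13 probes in cortex and hypothalamus. Points are limma estimates with 95% confidence intervals, black without and orange with scan day as a block, and filled points have an adjusted p under 0.05; of the 11 filled black points, 2 (Sort1 A_51_P517145 in hypothalamus) are also filled in orange.

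Beyond the 6 genes, the pathway was followed in lists of ligands, receptors, processing enzymes and signalling genes, with 1 probe (the brightest tested) per gene. For these counts, calls over all probes were 8.44% higher and 3.91% lower in Per3 5/5 cortex, 13.4% and 9.14% in Per3 4/4 cortex, 10.3% and 8.55% in Per3 5/5 hypothalamus, and 8.24% and 6.81% in Per3 4/4 hypothalamus. The differences below are log2 differences from WT.

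Of the other neurotrophins and their receptors, 5 of 7 were tested in cortex and 6 in hypothalamus. Sorcs1, a receptor of the sortilin family, was called lower in all 4 comparisons. Its difference was -0.40 in Per3 5/5 cortex (limma, adjusted p = 0.0313), -0.48 in Per3 4/4 cortex (0.00757), -0.41 in Per3 5/5 hypothalamus (0.0148) and -0.34 in Per3 4/4 hypothalamus (0.0430). No gene of this list was called when scan day was blocked.

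Among the genes of proneurotrophin processing, 14 of 15 were tested in cortex and 13 in hypothalamus. In cortex, 0 were called in Per3 5/5 and 2 lower in Per3 4/4. In hypothalamus, 2 were higher and 1 lower in Per3 5/5, and 1 higher and 2 lower in Per3 4/4. Furin, a protease that cuts proneurotrophins in the Golgi, was lower in Per3 4/4 in both tissues (-0.40 and -0.45). In Per3 5/5 it differed by -0.17 and -0.13, which did not pass. No gene of the list was called after blocking for scan day.

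Of the Trk adaptors and signalling genes, 32 of 33 were tested in cortex and 33 in hypothalamus. In cortex, 6 were called higher and 1 lower in Per3 5/5, and 9 higher and 2 lower in Per3 4/4. In hypothalamus, 8 were higher and 0 lower in Per3 5/5, and 7 higher and 1 lower in Per3 4/4. The median difference of the list was 0.07, 0.10, 0.16 and 0.11 in the same order. Shc3, a neuronal adaptor of Trk receptors, was higher in cortex by 0.49 in Per3 5/5 and 0.58 in Per3 4/4 and in Per3 5/5 hypothalamus by 0.42. Rapgef1, the exchange factor that activates Rap1 downstream of Trk receptors, was higher in all 4 comparisons, by 0.38 and 0.47 in cortex and 0.30 and 0.30 in hypothalamus. The kinases of the ERK pathway Map2k2 (0.29, 0.31, 0.47 and 0.36) and Mapk3 (0.34, 0.30, 0.34 and 0.34) were higher in all 4 as well. Frs3, another adaptor of Trk receptors, was higher in 3 (0.33, 0.26 and 0.38). Pik3ca, the catalytic subunit of PI3 kinase, was lower in cortex at -0.26 and -0.36 and in Per3 4/4 hypothalamus at -0.38. After blocking for scan day, 4 genes of the list were called higher and 1 lower in Per3 4/4 cortex, among them Shc3 (0.53, adjusted p = 0.0133), Rapgef1 (0.37) and Pik3ca (-0.23), and 0 in the other 3 comparisons.

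Among 12 partners and signalling genes of p75NTR, all tested, Arhgdia, whose protein binds p75NTR, was the 1 gene called higher in each comparison (0.36, 0.44, 0.49 and 0.49), and 1 gene was lower in Per3 4/4 cortex alone. After blocking for scan day, 0 were called.

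Of the regulators of Bdnf transcription, 16 of 17 were tested in each tissue, and none was lower. Called higher were 5 in Per3 5/5 cortex, 4 in Per3 4/4 cortex, 5 in Per3 5/5 hypothalamus and 3 in Per3 4/4 hypothalamus, while Bdnf itself did not pass in any. Camk4, the calcium-dependent kinase that phosphorylates CREB, was higher by 0.51, 0.44, 0.52 and 0.35 in that order, and Mef2d, an activity-dependent transcription factor, by 0.45, 0.50, 0.61 and 0.47. The E-box factor Usf2 was higher in all 4 (0.32 to 0.36) and Usf1 in cortex (0.47 and 0.32). Mef2a was higher in Per3 5/5 in both tissues (0.36 and 0.44). Under the scan-day block, Camk4 stayed called in Per3 4/4 cortex (0.38, adjusted p = 0.0210) and Per3 5/5 hypothalamus (0.50, adjusted p = 0.0470), and 2 genes of the list were called in each of these comparisons and 0 in the others.

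Transcripts that BDNF is known to induce were mostly higher in cortex than in hypothalamus. Of 21 tested in both tissues together, 20 in WT, 18 in Per3 4/4 and 18 in Per3 5/5 were called higher in cortex and 0 higher in hypothalamus. The median log2 differences of the list (hypothalamus minus cortex) were -1.98, -2.07 and -1.94. Over all tested probes, 59.5%, 59.0% and 58.6% were called in either direction, with median differences of 0.03, 0.02 and -0.02. Any part of BDNF in the tissue differences of the list was not tested. Against WT, 1 of 21 was called higher in each knock-in in cortex and 1 lower in Per3 4/4, and in hypothalamus 1 of 20 was higher and 1 lower in Per3 5/5 and 4 lower in Per3 4/4, where the median difference of the list was -0.19. Egr3, an immediate early transcription factor, was higher in cortex of both knock-ins (0.47 and 0.47). Egr2, of the same family, was lower in hypothalamus of both (-0.89 and -0.81) and did not differ detectably in cortex (-0.03 and -0.06). After blocking for scan day, 0 were called.

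Which genes varied most like the members between mice was described by Pearson's r of the residuals from the genotype means, over the 24 mice of a tissue, all of which share arrays, slides and scan days with the member itself. For Bdnf (A_51_P261991) these were Ap2b1 (r = 0.779) and Adcyap1, the gene of the neuropeptide PACAP (0.733), in cortex, and Bmp2 (0.872) and Gcat (0.798) in hypothalamus. For Ntf3 they were Lamb1 (0.773) and Pcdh8 (0.761) in cortex and Bhlhe22 (0.883) and Arhgap15 (0.819) in hypothalamus. WT replicate 3 held the highest WT hypothalamus level of both Bdnf (1.28) and Ntf3 (-3.99). Its part in these hypothalamus r values was not tested. The brightest Ntrk2 probe in cortex, the truncated form, varied most like Nat8f5 (0.932) and Slc1a3, an astrocyte glutamate transporter (0.856), and in hypothalamus like Mlycd (0.839) and Adh5 (0.837). Ntrk3 varied most like Wdr60 (0.821) and DXBay18 (0.791) in cortex and Ssh3 (0.898) and Ryr1 (0.868) in hypothalamus. Ngfr varied most like Igsf1 (0.932) and P2ry1 (0.853) in cortex, where the 3 arrays described above carry much of the variation, and like Zfp775 (0.816) and 4930455J16Rik (0.797) in hypothalamus. Sort1 A_52_P590396 varied most like Dnm1l (0.902) and Nlk (0.896) in cortex and Vti1a (0.956) and Dagla (0.936) in hypothalamus.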

How the data were processed

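Total RNA of frontal cortex and hypothalamus was labelled with Cy3 and hybridised to 1-colour Agilent whole mouse genome arrays. The authors deposited the Feature Extraction 10.7.1.1 output of each array, in which the processed signal of a spot is a linear intensity after background subtraction and spatial detrending, and the calls of spot quality are 0 or 1 and were used as a score. They also deposited log2 values for the series, shifted by the authors to each array's 75th percentile. These were set against scanner values centred per probe, with outlier spots kept, which the main fits left out. Of the values that were not blank, 99.929% in cortex and 99.908% in hypothalamus lay within 0.05. In the series table, 287243 cortex values were blank. The number of arrays limits the precision.

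Here, the value of a spot was log2 of the processed signal minus log2 of the 75th percentile of its array. Outlier spots (48 to 172 an array) were left out, and spots of a probe averaged. A probe entered a test if at least 6 of 8 arrays of any 1 group called it well above background (29715 probes in cortex, 30735 in hypothalamus, 31228 over both). Probe accessions were matched to RefSeq symbols, and promoter windows came from RefSeq (GRCm38.p6), with 4 of the 6 genes matched and Ntrk3 and Sort1 named only.

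Genotypes were compared within a tissue by limma 3.58.1 (R 4.3.3, two-sided), with 24 arrays in a fit and Benjamini-Hochberg adjustment over all tested probes. Tissues were compared within mice, with the mouse as a block, and the interaction was tested on the same differences. Means of both tissues of a mouse were compared by exact permutation tests in Python 3.11.15. Per the methods, mice were sleep deprived in groups of 8 of mixed genotypes; which mouse belonged to which group is not given in the sources used here, so that this could not be entered as a batch. Mice carry replicate numbers in the labels, and the labels do not tie a number to a shared animal, litter or day. The correlations of same-numbered mice of different genotypes were mixed (cortex -0.42 to 0.46, hypothalamus -0.20 to 0.52, medians of a comparison -0.036 to 0.22), with all 8 above 0 in hypothalamus of Per3 5/5 and WT alone, from 0.033 to 0.34. No comparison had every pair over 0.1, so no pairing was used. The scripts were tested on simulated data.

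Named were all probes of the 6 genes; of each pathway list, up to 6 genes called in at least 2 of the 6 genotype comparisons; and for each member and tissue, the 2 named genes with the highest r. Some genes of the lists are not reported here by name. The members and lists were chosen with earlier results of these data known. Alternatives were median centring, quantile normalization, normexp on the median signals (offset 50), the series table, other filters, keeping outlier spots, scan day, slide or replicate number as a block, a single scan day, fits of the compared groups only, the t-test of the methods, and leaving out each mouse. Fits without the mice high in cholinergic or pituitary markers, and values within scan days for the probe differences, were added after seeing the data.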

Additional observations from a re-analysis of the deposited data

Results flagged for a closer look

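In 9 of 78 groups of 8 arrays, the highest or the lowest level of a member lay further from its nearest neighbour than Dixon's test allows at the 95% level, a distance that chance alone gives in about 1 in 20 groups. For Ngfr (A_52_P236448) these were the cortex arrays of WT replicate 3 at -0.17, Per3 4/4 replicate 2 at -0.72 and Per3 5/5 replicate 4 at -1.10, each the highest of its group, and the hypothalamus array of Per3 5/5 replicate 1 at 1.09 (next highest 0.14). In hypothalamus of WT replicate 3, both Bdnf probes were the highest of the group, A_51_P261991 at 1.28 (next 0.75) and A_52_P384100 at -1.36 (next -2.41), and Ntrk3 A_52_P55706 was the lowest at 0.088 (next 0.38). The lowest Per3 4/4 hypothalamus level of Bdnf A_52_P384100 was that of replicate 1, at -3.32 (next -2.82). The lowest Per3 5/5 cortex level of Ntrk3 A_52_P55706 was that of replicate 7, at 0.52 (next 1.09). No cause of these levels was tested.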

How the results depend on the processing

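Against WT, the members called (of 13) were 1 in Per3 5/5 cortex, 2 in Per3 4/4 cortex, 4 in Per3 5/5 hypothalamus and 4 in Per3 4/4 hypothalamus. In that order they were 0, 0, 1 and 1 when scan day was blocked, 2, 5, 1 and 2 after normexp, 0, 1, 1 and 1 without the mice high in cholinergic markers, and 0, 0, 0 and 0 with slide as a fixed block or on a single scan day. Median centring, which shifted all differences by up to -0.12 (cortex, Per3 5/5), gave 3 and 1 in cortex. Over all 29715 cortex probes, it called 3423 and 5171. The share of all probes called differs between the fits too, and with scan day blocked it was 0.986%, 7.72%, 2.1% and 0.745%. Changes in these counts are therefore not read as a result about the members. Leaving out the mice with pituitary markers gave 2 in Per3 5/5 cortex and 2 in Per3 5/5 hypothalamus. In Per3 5/5 hypothalamus, no filter, slide as a random block and the t-test of the methods each gave 2, and a fit of the compared groups alone gave 1. Leaving out each mouse gave 1 to 2, 1 to 3, 2 to 4 and 1 to 4 calls, 0 to 0 between the knock-ins in either tissue, 10 to 11 (Per3 5/5), 9 to 10 (Per3 4/4) and 10 to 11 (WT) between the tissues, 0 to 0 for the interaction, and 1 to 2 for the means of both tissues. Those means gave 1 call, and 3 with median centring, 4 after normexp and 0 within scan days. With the replicate block, the calls were 0, 1 and 2 in cortex and 0, 3 and 4 in hypothalamus (Per3 5/5 against Per3 4/4, Per3 5/5 against WT, Per3 4/4 against WT), and truncated Ntrk2 was lost (adjusted p = 0.0612). Of the 11 genotype calls, 11 were kept after quantile normalization, in the series table, with a stricter filter and with outlier spots kept, 8 with median centring, 6 after normexp and 2 with scan day blocked. In the fit with slide as a fixed block, 2 differences of Per3 5/5 from WT in hypothalamus turned their direction, truncated Ntrk2 to 0.22 and Ntrk3 A_52_P500274 to -0.080 (adjusted p = 0.949 and 0.972); the cause was not tested. Dim probes (Ntf3, Ngfr A_51_P384968) lay near background, which limits their precision.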
